A study of Mus musculus with 6 samples.

Results

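Thioredoxins, peroxiredoxins and sulfiredoxin form one relay that removes hydrogen peroxide from cells. Described here are 10 mouse genes of that relay, taken by their symbols: Txn1 and Txn2, Txnrd1, Prdx1 to Prdx6, and Srxn1. The choice was made with earlier results of these data known. All 10 had a row among the 27179 genes of the deposited count table, and all 10 passed the filter on low counts. RNA came from primary satellite cells, which are skeletal muscle stem cells, taken from hindlimbs of wild-type C57BL/6 mice and called ageing in the labels, with no age given. The cells grew in medium with 20% FBS and bFGF, and for 72 h they received either recombinant human MG53 (rhMG53, 3 libraries) or, as vehicle control, bovine serum albumin (BSA, 3 libraries). Every library carries the label Day 3. MG53 is a striated-muscle TRIM protein known for plasma membrane repair, encoded in mice by Trim72. The dose of the added protein is not stated in the labels.

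A peroxiredoxin reduces peroxide with a cysteine of its own and is thereby oxidised. Thioredoxin reduces most peroxiredoxins again, and thioredoxin reductase, a selenoprotein, restores thioredoxin with electrons from NADPH. When peroxide overoxidises the active cysteine of a typical peroxiredoxin, sulfiredoxin repairs it with ATP. Several genes of the relay, Srxn1, Txnrd1 and Prdx1 among them, are known targets of the transcription factor NRF2, which binds DNA as a dimer with a small MAF protein. In muscle cells the relay handles peroxide made by mitochondria and by NADPH oxidases.

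Total gene counts were 17374151 to 19827476 in the rhMG53 libraries and 17898768 to 22738745 in the BSA libraries. The labels do not say which animal or culture a library came from, so a p-value here reflects only how much these 6 libraries vary, technical variation included. The labelled cell type was checked against 10 genes of muscle progenitors and muscle cells, which summed to 45062 to 49610 CPM (counts scaled by library size) with rhMG53 and 46267 to 48993 CPM with BSA. Pax7, which marks satellite cells, averaged 8.49 CPM with rhMG53 and 9.98 CPM with BSA, while Myh3, embryonic myosin, averaged 20591 CPM with rhMG53 and 22261 CPM with BSA, so the cultures held differentiated muscle cells. The 8 fibroblast markers summed to 1182 to 1285 CPM with rhMG53 and 1035 to 1285 CPM with BSA. The 8 macrophage and leukocyte markers summed to 7.25 to 11.5 CPM with rhMG53 and 6.87 to 8.09 CPM with BSA, with 7 of the 8 at a median under 1 CPM. The 6 endothelial markers summed to 5.14 to 6.73 CPM with rhMG53 and 6.43 to 6.82 CPM with BSA. The 4 adipocyte markers summed to 0.288 to 0.656 CPM with rhMG53 and 0.391 to 0.836 CPM with BSA. The 4 Schwann cell markers summed to 2.06 to 2.19 CPM with rhMG53 and 1.01 to 1.70 CPM with BSA, groups that do not overlap, with Sox10 averaging 0.114 CPM with rhMG53 and 0.0186 CPM with BSA; their part in any result was not tested. In bulk RNA, a change in the number of cells of a type and a change in RNA per cell cannot be told apart.

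None of the 10 genes passed the test for a difference between rhMG53 and BSA. Of them, Srxn1, Txnrd1 and Prdx6 had all rhMG53 libraries above all 3 BSA libraries. Across all genes, 3 of 13769 tested passed edgeR's quasi-likelihood test at an adjusted p under 0.05, which is 0.0218% of genes, and all 3 were higher with rhMG53. DESeq2 and limma voom also called 0 of the 10 genes, and in each of the 3 tools Srxn1, Txnrd1 and Prdx6 were those with an unadjusted p under 0.05. In edgeR that is 3 of 10 with rhMG53 higher and 0 of 10 with rhMG53 lower, against 2.98% and 2.22% of all tested genes. Groups did not overlap, with rhMG53 higher, in 3 of the 10 genes and in 5.94% of all tested genes, and with rhMG53 lower in 0 of the 10 and in 4.83% of all tested genes. Of the 10 genes, 9 had a log2 fold change above 0, against 50.5% of all tested genes. The median of the 10 was 0.07, against 0.0014 over all tested genes. Because the 10 were chosen with earlier results known, these counts beside the shares are a description and not a test. Without rhMG53 replicate 2, which was the highest library for 7 of the 10 genes, 7 genes had a log2 fold change above 0 and the median was 0.02.

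**Figure D1:**
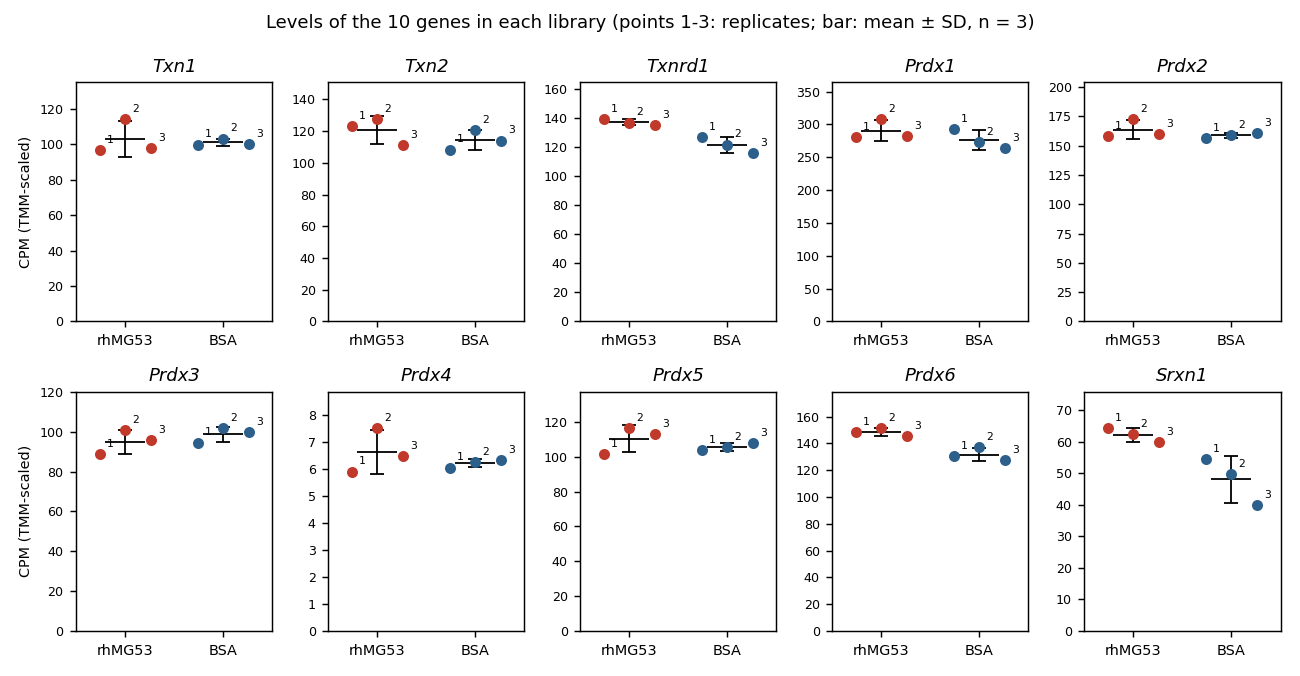
TMM-scaled counts (CPM, y axes from 0) of each of the 10 genes in each library, with rhMG53 on the left and BSA on the right. Points are libraries, numbered by replicate, and the bar is the mean with its SD (n = 3). The 3 rhMG53 points lie above every BSA point for Txnrd1, Prdx6 and Srxn1, and rhMG53 replicate 2 is the highest point for 7 of the 10 genes.

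The promoter sequences of Srxn1, Prdx1 and Txnrd1 are shown first, because in mammals these genes are known NRF2 targets and their upstream windows were the ones that held a searched motif. RefSeq start sites (build GRCm38.p6, the assembly of mm10) matched 9 of the 10 genes, Prdx6 being the exception, and gave 11 windows of the 250 bases before a start. The motifs searched, on both strands, were TGACTCA, the core that AP-1 factors bind and that NRF2 with a small MAF protein binds when it is flanked by GC, GCTGANTCA, which is that flanked form, and TGACNNNGC, the core of the antioxidant response element. The motifs can overlap each other, and they were chosen with the sequences known. The windows below read 5′ to 3′ on the gene's strand, which is the plus strand for all 3, with matches in capitals.

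Srxn1 (chr2:152105274-152105523): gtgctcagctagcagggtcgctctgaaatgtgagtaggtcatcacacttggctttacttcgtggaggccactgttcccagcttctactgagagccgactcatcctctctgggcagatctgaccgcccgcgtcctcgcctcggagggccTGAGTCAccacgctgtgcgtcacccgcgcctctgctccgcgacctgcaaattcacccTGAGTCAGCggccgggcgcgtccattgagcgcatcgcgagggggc
Prdx1 (chr4:116685349-116685598): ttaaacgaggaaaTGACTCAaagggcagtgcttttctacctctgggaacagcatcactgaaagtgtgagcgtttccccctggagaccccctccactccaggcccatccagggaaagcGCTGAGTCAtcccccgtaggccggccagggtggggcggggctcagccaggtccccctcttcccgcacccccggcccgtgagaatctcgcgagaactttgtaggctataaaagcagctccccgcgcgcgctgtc
Txnrd1 (chr10:82858956-82859205): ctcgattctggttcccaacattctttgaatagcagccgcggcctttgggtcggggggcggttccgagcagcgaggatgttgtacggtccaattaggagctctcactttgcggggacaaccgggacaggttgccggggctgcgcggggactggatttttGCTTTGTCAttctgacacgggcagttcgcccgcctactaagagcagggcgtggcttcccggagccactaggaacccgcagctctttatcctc

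The Srxn1 window held TGACTCA at 2 places, read as TGAGTCA on the gene's strand, the nearer one at positions -45 to -39 from the start and flanked so that it also matched GCTGANTCA. Prdx1 also held TGACTCA at 2 places, and the one at positions -131 to -125 lay inside a match to both GCTGANTCA and TGACNNNGC. Of the 3 Txnrd1 windows, the one shown, at a start inside the gene, held a single TGACNNNGC, and the others held none of the motifs. Among all 32851 mouse windows of this length, 4.46% held TGACTCA, 0.167% held it 2 or more times, 1.02% held GCTGANTCA and 10.2% held TGACNNNGC. The windows of Prdx2, Prdx3, Prdx4, Prdx5, Txn1 and Txn2 held none of these letters. A match is a description of the sequence and not evidence that a factor binds there.

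Srxn1, the sulfiredoxin gene (gene ID 76650, chromosome 2, 152105524 to 152111376), had the largest log2 fold change of the 10. It measured 64.3, 62.4 and 59.8 CPM in rhMG53 replicates 1 to 3, against 54.5, 49.7 and 40.0 CPM in BSA replicates 1 to 3. Every rhMG53 library lay above every BSA library, and BSA replicate 3 was the lowest. The means were 62.2 ± 2.26 CPM with rhMG53 and 48.1 ± 7.34 CPM with BSA (SD, n = 3 each). The fold change was 1.29, or 0.37 on the log2 scale (SE 0.098, 95% interval 0.15 to 0.59), and the gene ranked 41 of 13769 by p. It did not pass in edgeR (adjusted p = 0.935). The log2 fold change was 0.26 without BSA replicate 3 and 0.47 without BSA replicate 1, with adjusted p at 0.722 and 0.999. Raw counts of Srxn1 were 728 to 1274 per library, so the counting error was at most 3.71% of a value.

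Txnrd1 encodes the cytosolic thioredoxin reductase (gene ID 50493, chromosome 10, 82833951 to 82897724). Its level was 139.2, 136.6 and 134.9 CPM in rhMG53 replicates 1 to 3 and 126.4, 121.5 and 115.9 CPM in BSA replicates 1 to 3, so the groups did not overlap. The log2 fold change was 0.17 (SE 0.058), a fold change of 1.13 (95% interval 1.03 to 1.23). It did not pass in edgeR (adjusted p = 0.935). Eid3 overlaps Txnrd1 on the same strand and Gm38560 and Gm47073 overlap it on the opposite strand, and the labels do not say whether reads were counted by strand.

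The thioredoxins that this reductase and its mitochondrial counterpart serve differed less. Txn1, the cytosolic thioredoxin (gene ID 22166, chromosome 4, 57943373 to 57956411), measured 96.7, 114.5 and 97.9 CPM in rhMG53 replicates 1 to 3, against 99.9, 103.3 and 100.4 CPM in BSA replicates 1 to 3. The groups overlapped, with rhMG53 replicate 2 the highest library and the other two rhMG53 libraries below all BSA libraries. Its fold change was 1.02 (95% interval 0.912 to 1.14). Txn2, the mitochondrial thioredoxin (gene ID 56551, chromosome 15, 77915051 to 77928994), measured 123.2, 127.8 and 111.0 CPM in rhMG53 replicates 1 to 3, against 108.3, 120.9 and 114.1 CPM in BSA replicates 1 to 3, with overlap. Its fold change was 1.06 (95% interval 0.948 to 1.17).

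Prdx6 was the peroxiredoxin whose groups did not overlap. It encodes the 1-Cys member, which is reduced through glutathione instead of thioredoxin and also acts as a phospholipase (gene ID 11758, chromosome 1, 161240112 to 161251210). Its level was 148.6, 151.3 and 145.4 CPM in rhMG53 replicates 1 to 3 and 130.3, 137.0 and 127.8 CPM in BSA replicates 1 to 3. The fold change was 1.13 (95% interval 1.03 to 1.23), a log2 fold change of 0.17 (SE 0.057), and it did not pass in edgeR (adjusted p = 0.935). Prdx6b, a near copy listed in the same table, had 0 counts in all 6 libraries.

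The typical 2-Cys peroxiredoxins Prdx1 to Prdx4, the known substrates of sulfiredoxin, overlapped between the groups. Prdx1, the abundant cytosolic form (gene ID 18477, chromosome 4, 116685599 to 116700000), measured 280.5, 308.6 and 282.7 CPM in rhMG53 replicates 1 to 3, against 292.4, 272.9 and 263.6 CPM in BSA replicates 1 to 3. Only rhMG53 replicate 2 lay above all BSA libraries, and the fold change was 1.05 (95% interval 0.952 to 1.16). Prdx2, the other cytosolic form (gene ID 21672, chromosome 8, 84969622 to 84974811), measured 158.0, 172.9 and 159.8 CPM in rhMG53 replicates 1 to 3, against 156.6, 158.9 and 160.6 CPM in BSA replicates 1 to 3. Again rhMG53 replicate 2 was the highest, with the other libraries between 156.6 and 160.6 CPM, and the fold change was 1.03 (95% interval 0.943 to 1.13). Prdx2 overlaps Rnaseh2a and Junb on the opposite strand, whose log2 fold changes were -0.09 and 0.04.

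Prdx3, the mitochondrial 2-Cys form, was the only one of the 10 with a negative log2 fold change (-0.05, SE 0.065; gene ID 11757, chromosome 19, 60864066 to 60874538). It measured 88.7, 100.6 and 95.8 CPM in rhMG53 replicates 1 to 3, against 94.5, 101.8 and 99.7 CPM in BSA replicates 1 to 3, and the fold change was 0.963 (95% interval 0.872 to 1.06). Prdx4, the form of the endoplasmic reticulum (gene ID 53381, chromosome X, 155323918 to 155342272), was the lowest of the 10, with 5.91, 7.52 and 6.49 CPM in rhMG53 replicates 1 to 3 and 6.06, 6.27 and 6.32 CPM in BSA replicates 1 to 3. At 111 to 138 counts per library its counting error reached 9.49%, and the interval of its fold change, 0.876 to 1.30, was the widest of the 10 on the log2 scale. Prdx5, the atypical 2-Cys form found in mitochondria, peroxisomes and cytosol (gene ID 54683, chromosome 19, 6906697 to 6910106), measured 101.4, 116.3 and 113.1 CPM in rhMG53 replicates 1 to 3, against 103.6, 105.3 and 107.8 CPM in BSA replicates 1 to 3. rhMG53 replicates 2 and 3 lay above the BSA libraries and replicate 1 below them, and the fold change was 1.04 (95% interval 0.946 to 1.15). Prdx5 overlaps Trmt112 on the opposite strand, which had a log2 fold change of 0.17. For the 7 genes whose groups overlapped, adjusted p was 0.981 to 0.995 in edgeR, and 95% intervals on the fold reached no higher than 1.30 and no lower than 0.872.

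**Figure D2:**
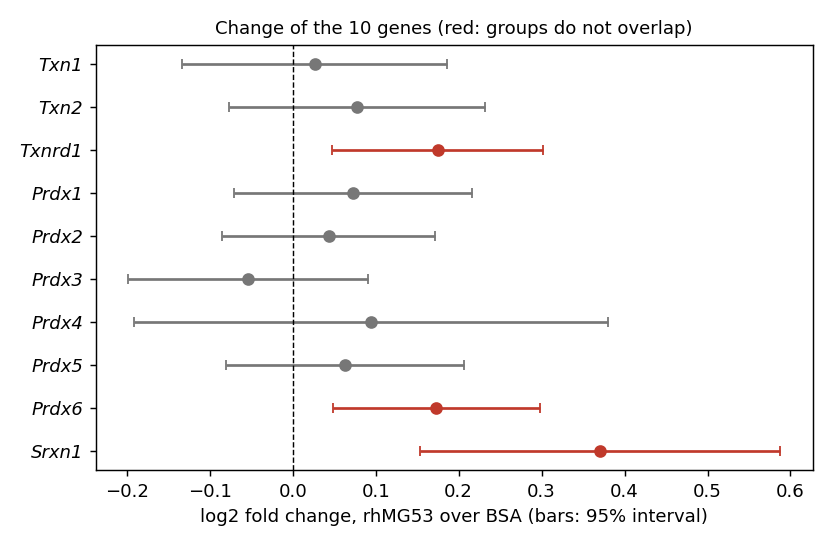
Log2 fold change, rhMG53 over BSA, of each gene with its 95% interval from edgeR's fit across all genes (3 libraries a group). The genes drawn in red, Txnrd1, Prdx6 and Srxn1, have groups that do not overlap and intervals above 0 before adjustment for the 13769 tests, and none of the 10 passed after it.

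Scaled by exon length, the genes stood in the same order in both groups. In CPM per kilobase of exon, Prdx1 was the highest at 114.2 ± 6.16 with rhMG53 and 108.6 ± 5.78 with BSA, followed by Txn1 at 98.0 ± 9.45 with rhMG53 and 96.3 ± 1.76 with BSA (SD, n = 3 each). Next came Prdx2, Prdx5, Prdx3, Prdx6, Txnrd1, Txn2, Srxn1 and Prdx4. Srxn1 stood at 22.1 ± 0.805 with rhMG53 and 17.1 ± 2.61 with BSA, and Prdx4 at 6.71 ± 0.825 with rhMG53 and 6.28 ± 0.144 with BSA. Neighbours whose mean ± SD ranges overlapped were Txn1 and Prdx2, Prdx3 and Prdx6, and Txnrd1 and Txn2 with rhMG53, and Txnrd1 and Txn2 with BSA. These levels rest on the union of annotated exons, which can exceed the transcript a cell makes.

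**Figure D3:**
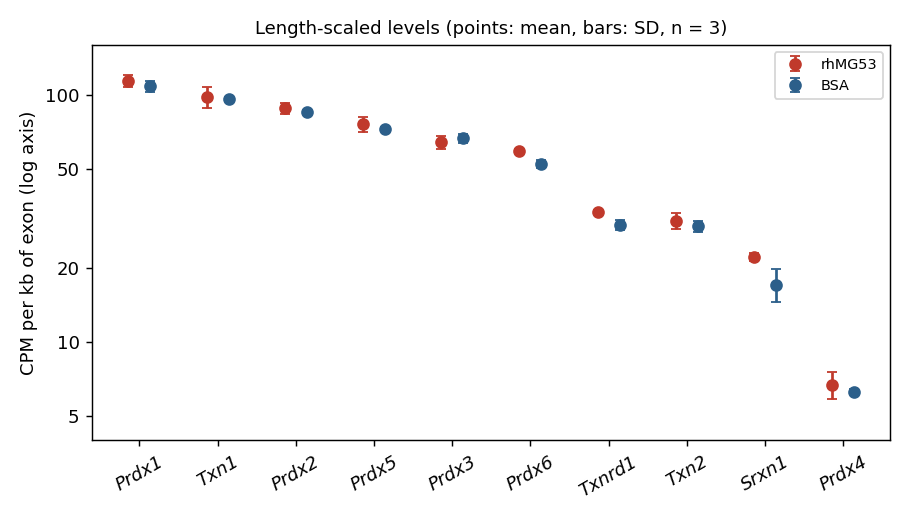
Mean CPM per kilobase of exon (log axis) of the 10 genes, ordered by their BSA level, with rhMG53 left of BSA for each gene and bars for the SD (n = 3). Levels run from 114.2 for Prdx1 with rhMG53 to 6.28 for Prdx4 with BSA, and the order is the same in both groups.

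Prdx1 held the largest share of the peroxiredoxin pool in both groups. Of the summed length-scaled level of the 6 peroxiredoxins, Prdx1 held 27.9 ± 0.425% with rhMG53 and 27.6 ± 1.40% with BSA, Prdx2 held 21.6 ± 0.262% with rhMG53 and 21.8 ± 0.394% with BSA, and Prdx5 held 18.6 ± 0.683% with rhMG53 and 18.6 ± 0.480% with BSA. Prdx3 held 15.7 ± 0.338% with rhMG53 and 17.0 ± 0.630% with BSA. Prdx6 held 14.5 ± 0.602% with rhMG53 and 13.4 ± 0.388% with BSA, and Prdx4 held 1.64 ± 0.119% with rhMG53 and 1.60 ± 0.0417% with BSA. The shares of Prdx3 and Prdx6 differed between the groups in opposite directions, each by more than the SD of either group, and no test was made on them. The summed CPM of the 6 was 783.0, 857.3 and 803.3 in rhMG53 replicates 1 to 3 and 783.4, 782.1 and 765.9 in BSA replicates 1 to 3, which overlap.

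Set against its substrates, sulfiredoxin had more counts in every rhMG53 library than in any BSA library. For 1000 counts of Prdx1 to Prdx4 there were 120.7, 105.9 and 109.8 counts of Srxn1 in rhMG53 replicates 1 to 3, against 99.1, 92.0 and 75.5 counts in BSA replicates 1 to 3. The means were 112.1 ± 7.66 with rhMG53 and 88.9 ± 12.1 with BSA (SD, n = 3 each), a difference of 23.3, and without BSA replicate 3 the difference was 16.6. Txnrd1 counts for 100 counts of Txn1 were 143.9, 119.3 and 137.8 in rhMG53 replicates 1 to 3 and 126.6, 117.6 and 115.5 in BSA replicates 1 to 3, which overlap through rhMG53 replicate 2. These ratios use counts without length scaling, so they compare libraries and not the molecules of the 2 genes, and they were given no test. The Srxn1 ratio draws on the Srxn1 values given above, whose groups already did not overlap, so it is not a separate result.

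**Figure D4:**
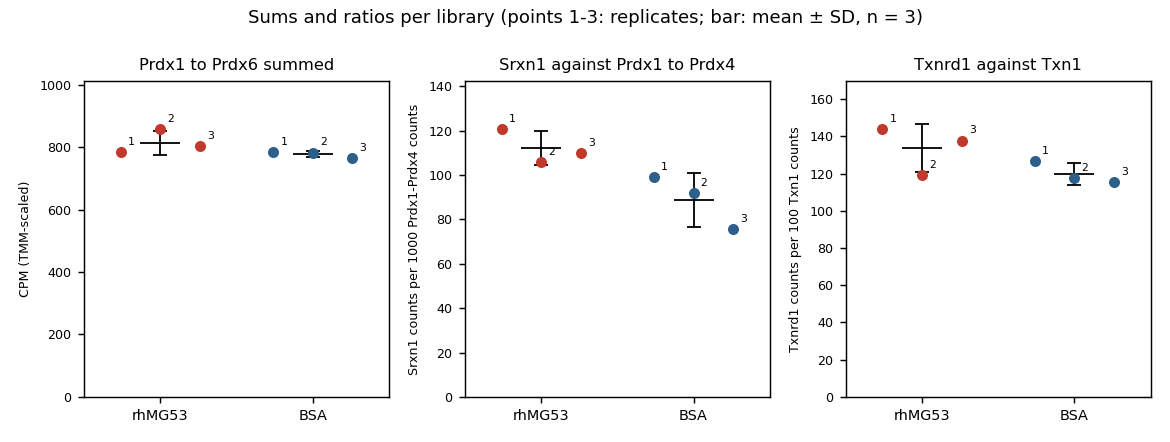
Per-library values of the summed peroxiredoxin level (left, CPM), Srxn1 counts per 1000 counts of Prdx1 to Prdx4 (middle) and Txnrd1 counts per 100 counts of Txn1 (right), with rhMG53 left of BSA in each panel. Points are libraries, numbered by replicate, and the bar is the mean with its SD (n = 3). The Srxn1 ratio is the one that does not overlap, at 105.9 to 120.7 with rhMG53 and 75.5 to 99.1 with BSA. The CPM of Srxn1 alone did not overlap either.

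The genes whose profile over the 6 libraries lay nearest to that of Srxn1 were Nqo1, Kcnk13, Cxcl16, Ass1 and Eef2k. Nearness was the root mean square difference of log2 CPM, centred on each gene's mean, over the 10197 other genes with at least 5 CPM, and it was 0.066 for Nqo1 and 0.079 to 0.083 for the others. Nqo1, an NADPH-using quinone reductase and known NRF2 target, averaged 26.7 ± 1.03 CPM with rhMG53 and 21.4 ± 2.36 CPM with BSA (log2 fold change 0.32). Ass1, an enzyme of arginine synthesis, averaged 118.8 ± 11.3 CPM with rhMG53 and 92.7 ± 10.2 CPM with BSA (log2 fold change 0.36). Kcnk13 encodes a potassium channel, Cxcl16 a chemokine and Eef2k a kinase of translation elongation, with log2 fold changes of 0.28, 0.30 and 0.25. Among the other 9 genes of the relay, Txnrd1 ranked 88 and Prdx6 ranked 205 by nearness, and Prdx3 was the farthest at 7369. Nearness takes in the difference between the groups, so fold changes like that of Srxn1 follow from how these genes were picked. With 6 libraries and so many genes compared, such nearness is a description of these libraries only.

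Partners of thioredoxin had log2 fold changes of both signs. Of 21 tested thioredoxin-fold relatives and partners, 12 had a log2 fold change above 0 and 9 below, with a median of 0.04. In edgeR 0 passed, and at an unadjusted p under 0.05, 1 was higher with rhMG53 and 1 lower. Groups did not overlap in 3 of the 21 with rhMG53 higher and in 2 with rhMG53 lower. For this list and those below, the share of all tested genes above 0 is 50.5%. At an unadjusted p under 0.05 the shares are 2.98% with rhMG53 higher and 2.22% with rhMG53 lower. For groups that do not overlap, the shares are 5.94% with rhMG53 higher and 4.83% with rhMG53 lower. The lists were chosen with earlier results of these data known, so their counts beside these shares are a description. Txnip, which binds thioredoxin and inhibits it, measured 52.9, 43.8 and 40.5 CPM in rhMG53 replicates 1 to 3, against 59.0, 62.0 and 61.3 CPM in BSA replicates 1 to 3. All rhMG53 libraries lay below all BSA libraries, with a log2 fold change of -0.41 (SE 0.091) that did not pass (adjusted p = 0.855). Txnl4b, a spliceosome protein with a thioredoxin fold, was at 6.09 ± 1.04 CPM with rhMG53 and 4.64 ± 0.441 CPM with BSA (log2 fold change 0.39, SE 0.158), with overlap, and Txndc16 had a log2 fold change of 0.16. The mitochondrial reductase gene Txnrd2 averaged 9.08 ± 0.383 CPM with rhMG53 and 8.78 ± 0.708 CPM with BSA.

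The other enzymes of peroxide and superoxide removal had a median log2 fold change of 0.02, with 6 of 9 above 0. Groups did not overlap in 1 of the 9 with rhMG53 higher and in 0 with rhMG53 lower. In edgeR 0 of these enzymes were called, and 0 had an unadjusted p under 0.05. Those of lowest p were catalase, Cat, at 52.9 ± 1.83 CPM with rhMG53 and 48.4 ± 1.28 CPM with BSA (0.13), Gpx8, a glutathione peroxidase of the endoplasmic reticulum (0.06), and Gpx1, the cytosolic glutathione peroxidase (-0.06). Of 13 reductases and clients that take electrons from thioredoxin or act with it, 6 had a log2 fold change above 0. Groups did not overlap in 1 of the 13 with rhMG53 higher and in 1 with rhMG53 lower. The median of these 13 genes was -0.0063 and 0 passed in edgeR (at an unadjusted p under 0.05, 1 was higher with rhMG53 and 1 lower). They included the stress-induced Sesn2 (0.23, SE 0.086), the methionine sulfoxide reductase Msra (-0.27, SE 0.109) and the DNA repair and redox factor Apex1 (0.09). Of 11 genes of oxidative folding in the endoplasmic reticulum, where Prdx4 acts, 7 were above 0, with a median of 0.01. In edgeR 0 passed (1 had an unadjusted p under 0.05, with rhMG53 higher), and the groups overlapped for all 11 genes. Ero1a, the oxidase that makes peroxide there, had a log2 fold change of 0.17 (SE 0.073), its paralog Ero1b -0.21 (SE 0.155) and the oxidase Qsox2 0.11.

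NADPH, which drives the relay, comes in large part from the pentose phosphate pathway. Of 16 tested NADPH supply genes, 13 had a log2 fold change above 0, against 50.5% of all tested genes. Their median was 0.08 and 0 passed in edgeR. At an unadjusted p under 0.05 there were 3, all with rhMG53 higher, against 2.98% of all tested genes. Groups did not overlap, with rhMG53 higher, in 6 of the 16, against 5.94% of all tested genes. With rhMG53 lower the count was 0 of the 16, against 4.83%. The 3 of lowest p were the pathway enzymes Tkt at 45.1 ± 3.69 CPM with rhMG53 and 38.8 ± 2.14 CPM with BSA (0.22, SE 0.077), Pgd at 158.7 ± 4.94 CPM with rhMG53 and 143.5 ± 1.94 CPM with BSA (0.15, SE 0.055), and Taldo1 at 120.3 ± 3.49 CPM with rhMG53 and 108.6 ± 2.36 CPM with BSA (0.15, SE 0.056). Adjusted p for these 3 was 0.940 to 0.946 in edgeR. Of 8 genes of selenoprotein synthesis, on which Txnrd1 depends, 6 were above 0 with a median of 0.08. In edgeR 0 passed (2 had an unadjusted p under 0.05, each with rhMG53 higher). Groups did not overlap in 2 of the 8 with rhMG53 higher and in 1 with rhMG53 lower. The lowest p belonged to Scly, which recycles selenium from selenocysteine (0.23, SE 0.090), Eefsec, the selenocysteine elongation factor (0.31, SE 0.138), and Trnau1ap (0.17).

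Of 27 NRF2 regulators and other NRF2 targets, 21 had a log2 fold change above 0, the median was 0.11, 9 had an unadjusted p under 0.05, all with rhMG53 higher, and 1 passed over all genes in edgeR. Over all tested genes the shares were 2.98% with rhMG53 higher and 2.22% with rhMG53 lower at an unadjusted p under 0.05, and 0.0218% at an adjusted p under 0.05. The gene that passed was Hmox1, the heme-degrading oxygenase, which averaged 136.9 ± 6.18 CPM with rhMG53 and 97.3 ± 3.87 CPM with BSA (log2 fold change 0.49, adjusted p = 0.0313). Its log2 fold change was 0.46 to 0.53 on leaving out any single library and 0.49 with the replicate number as a block, while its adjusted p there was above the threshold (0.0685 to 0.571). Groups did not overlap, with rhMG53 higher, in 11 of the 27 genes, against 5.94% of all tested genes. With rhMG53 lower the count was 0 of the 27, against 4.83%. The list was chosen with earlier results of these data known, so its counts beside these shares are a description and not a test. Nfe2l2, which encodes NRF2, averaged 95.6 ± 4.01 CPM with rhMG53 and 87.4 ± 4.31 CPM with BSA (0.13, SE 0.063) and Keap1, its inhibitor, had a log2 fold change of -0.03; neither passed, and both were singled out after their values were seen.

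**Figure D5:**
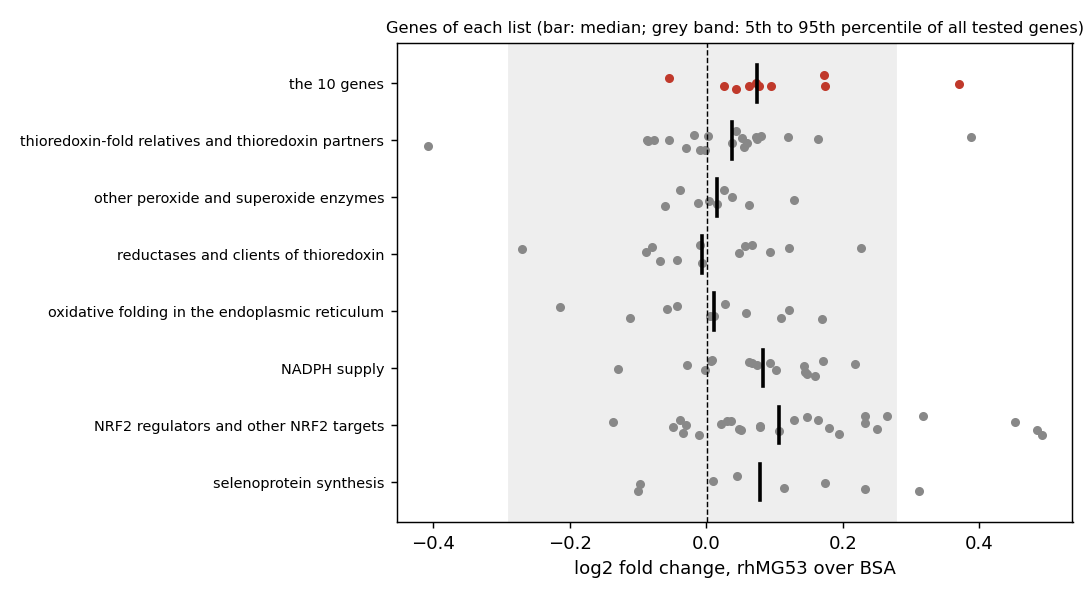
Log2 fold change, rhMG53 over BSA, of each tested gene of the 10 (red) and of the related lists (grey), with the list median as a black bar, the median of all tested genes as a dashed line and their 5th to 95th percentiles, -0.29 to 0.28, as a band. Srxn1 (0.37) is the one of the 10 outside the band, and medians run from -0.0063 for reductases and clients of thioredoxin to 0.11 for NRF2 regulators and targets.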

How the data were processed

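RNA-seq was measured in 3 rhMG53 and 3 BSA libraries, made after poly(A) selection with a directional kit per the labels' protocols. The authors deposited whole-number counts per NCBI gene ID and library, not normalised. Per the submitters' processing notes, STAR, featureCounts and edgeR were used with build mm10. The annotation, the strand setting and the handling of multimapping reads are not stated, so overlapping genes on opposite strands, and near-identical copies, may share reads. IDs were matched to symbols through RefSeq (GRCm38.p6), and exon lengths came from GENCODE vM21.

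Of 27179 rows, 13769 passed filterByExpr (minimum count 10, minimum total 15). They were scaled with TMM factors and tested with edgeR's quasi-likelihood test (edgeR 4.0.16, R 4.3.3), 2-sided, with treatment as the only term and Benjamini-Hochberg adjustment over all tested genes at 0.05. CPM values use TMM-scaled library sizes, except for cell type markers. SE is the log2 fold change divided by the square root of F. The biological coefficient of variation was 7.89%. The fit was tested on simulated data. The changes planted there were larger than that of any of the 10 genes. The simulation therefore cannot show whether changes of their size would be called. Alternatives were other scaling factors, other filters, DESeq2 1.42.0, limma voom (limma 3.58.1), the replicate number as a block and leaving out each library. Counting errors cover counting only.

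The 10 genes, the lists and the motifs were chosen with earlier results of these data known. Beside the 10 genes, the text names the called genes of each list or, with none called, the 3 of lowest p, and the 5 genes nearest to Srxn1. A few other genes are named for their role or position.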

Additional observations from a re-analysis of the deposited data

How the results depend on the processing

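None of the 10 genes passed under any of the 14 alternatives, DESeq2 and limma voom included. The lowest adjusted p of the 10 was 0.167, for Srxn1, with every gene of at least 1 count tested. Srxn1 and Prdx6 kept an unadjusted p under 0.05 in every alternative. Txnrd1 lost it without BSA replicate 3 (unadjusted p = 0.0531 in edgeR, log2 fold change 0.14). BSA replicate 3 was the lowest library for Srxn1, Txnrd1 and Prdx6. The direction turned without rhMG53 replicate 2 for Prdx4 and Txn1, whose log2 fold changes ran from -0.0052 to 0.17 and from -0.056 to 0.070 when one library was left out. Over all tested genes, 3 were called in the main test, 6 with every gene of at least 1 count tested, 5 with DESeq2, 0 with the replicate block and 0 to 4 when one library was left out, with 0 without BSA replicate 2. In the NRF2 list 1 gene, Hmox1, was called, against 0 with the replicate block and 0 when any one library was left out, at a log2 fold change of 0.46 to 0.53 in those settings. Of 475 values of 34 named genes under alternatives, 466 kept their direction and side of the threshold, and the others were those of Prdx4 and Txn1 above and 7 of Hmox1. The labels do not say whether same-numbered libraries shared an animal or culture. Deviations of same-numbered libraries from their group means correlated at 0.468, -0.258 and -0.300 over 10198 genes. The highest correlation between the groups was 0.588, for rhMG53 replicate 2 with BSA replicate 3. In raw counts of tested genes, each rhMG53 library was nearer to a BSA library than to any other rhMG53 library. As chi-square per degree of freedom, rhMG53 replicates 1 to 3 stood at 4.32, 9.51 and 8.54 from BSA replicates 1, 3 and 2. The nearest 2 rhMG53 libraries, replicates 1 and 3, stood at 12.3 from each other. A source shared by libraries with different numbers was not tested. None of the 10 genes was called with or without the replicate block, so calls among them could not be lost to it. Under the scaling alternatives the median log2 fold change of all genes was -0.0062 to 0.0158. With 3 libraries a group, the 95% intervals of Prdx1 to Prdx5, Txn1 and Txn2 lie between 0.872 and 1.30 on the fold scale, and at 111 to 138 counts Prdx4 is the gene that depth limits most.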
